A study of Mus musculus with 2 samples.

Results

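The genes described here encode the machinery that brings proteins into mitochondria, folds and removes them there, and shapes the organelle by fusion and fission. They were taken by name from the deposited expression table: every array gene whose listed name starts with TIMM or TOMM, and every array gene with 1 of 24 further names of mitochondrial chaperones, proteases, processing enzymes, scaffold proteins and fusion or fission proteins. The names gave 38 array genes of the 31492 in the table, and 4 of the 24 further names (HSPA9A, LONP1, PHB2 and CHCHD10) were not listed as such. These names stand for 37 gene symbols, because the array gene listed as TIMM13A matched Timm10 through a synonym in RefSeq, beside the array gene listed as TIMM10. Which transcript the TIMM13A probe reads was not settled, and it keeps its listed name below.

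The study compared osteoclast precursors kept in macrophage colony-stimulating factor (M-CSF), which sustains cells of the macrophage lineage, with the same kind of cells given M-CSF together with RANKL, the cytokine that drives osteoclast formation. The cells were C57BL/6 mouse bone marrow cells from animals of 8 weeks, sorted as CD3-, CD45R-, CD11b lo/- and CD115+, and the labels name no transgene or deletion in either group. Both groups were cultured for 3 days, the first with M-CSF at 30 ng/ml and the second with M-CSF and RANKL, each at 30 ng/ml, and RNA came from the adherent cells. Each group is deposited as the mean and standard deviation (SD) of 3 biological replicates on Illumina bead arrays; whether a replicate was 1 animal or a pool is not stated. Values of single arrays are not analysed here, so whether individual replicates of the 2 groups overlap cannot be stated, and every value below is a mean ± SD with n = 3.

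Nearly all mitochondrial proteins are made in the cytosol. They enter through the TOM complex of the outer membrane. Most then go on through TIM complexes of the inner membrane, where the matrix Hsp70 motor pulls them in and a peptidase cuts off the targeting sequence. Hsp60 and its lid Hsp10 fold matrix proteins, membrane-bound and matrix proteases remove damaged ones, and a balance of fusion and fission sets the shape of the network. Osteoclasts are known as cells rich in mitochondria.

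The labels were checked on reference genes. The intensity of Ctsk, the collagen-degrading cathepsin of osteoclasts, was 302 in M-CSF and 67578 with RANKL, and that of Mmp9 was 198 and 56537. Acp5, the tartrate-resistant acid phosphatase, was under the detection floor in M-CSF and at least 10.4-fold higher with RANKL. All 7 tested osteoclast markers of 8 were higher with RANKL (summed intensity 1886 and 157750), and 8 of 9 macrophage markers were lower (184060 and 52516), among them Csf1r, the M-CSF receptor, at 18261 and 12688. T cell (4 of 4), stromal (5 of 5), B cell (4 of 5) and erythroid (4 of 5) markers were at background in both groups. Granulocyte markers (6 of 8 on the array, 2 lower) summed to 14150 and 10541, and megakaryocyte markers (2 of 5 lower) to 36738 and 2149.0, most of it Pf4. The part of these shifts in the results below was not tested, and in RNA from a whole culture a change in how many cells of a type are present and a change in RNA per cell cannot be told apart.

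Genes of mitochondrial import, folding and dynamics were mostly higher with RANKL. Of the 38 array genes, 28 were detected (detection p under 0.01) in at least 1 group and tested, 27 of them in both groups. With RANKL, 21 of the 28 rose (75%), 1 fell (3.57%) and 6 did not pass an adjusted p of 0.05 (limma moderated test on the log2 ratio of group means, Benjamini-Hochberg over all 11012 tested genes). Among all tested genes 57.8% passed in either direction, 28.9% higher and 29.0% lower. The median log2 ratio of the 28 was 0.65, from −0.48 to 1.45, beside −0.00 over all tested genes; 15 rose by at least 1.5-fold and 5 by at least 2-fold. Of all tested genes 14.2% rose by at least 1.5-fold and 6.90% by at least 2-fold. Their SDs were 0.481% to 15.2% of the mean. The mean ± SD ranges of the 2 groups did not overlap for 24 of the 28. The same count over all tested genes was not made, so no background share stands beside it. The names were chosen with earlier results of these data known, so the counts describe the group and give it no p of its own. With both SDs doubled, 15 rose and 0 fell, beside 14.0% higher and 13.8% lower among all tested genes.

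**Figure D1:**
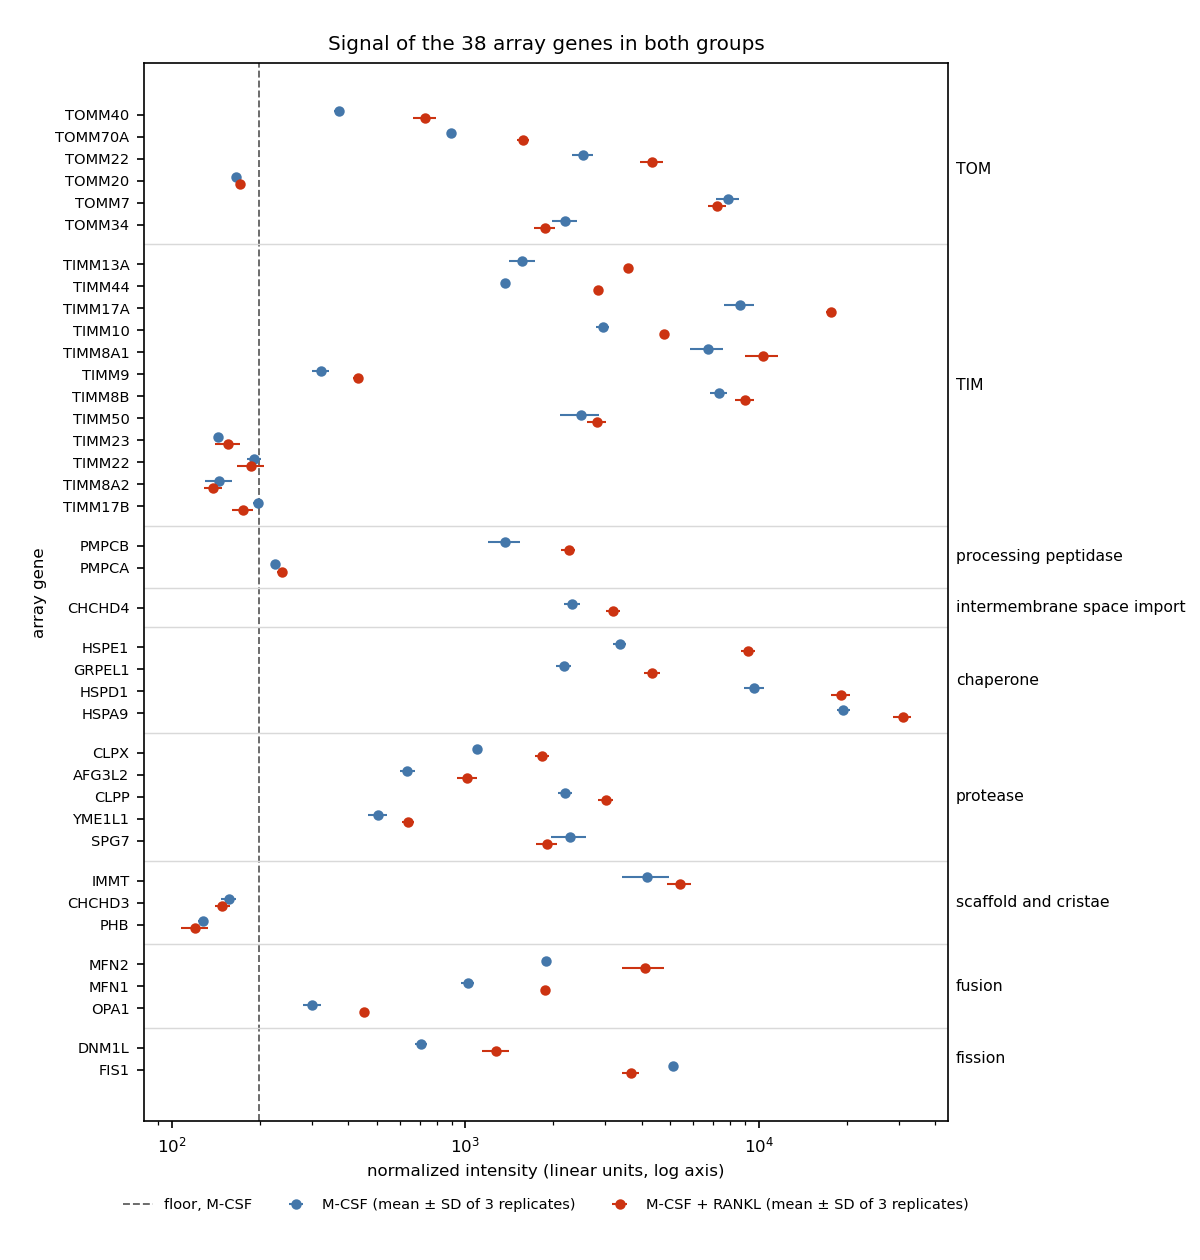
Intensity (x axis, log scale) of the 38 array genes of import, folding and dynamics, by role, in M-CSF (blue) and M-CSF + RANKL (red); points are means of 3 biological replicates, bars are ± SD, and the dashed line is the M-CSF floor of 198. Most red points lie to the right of the blue ones, and Fis1 fell, from 5101 to 3662.

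The chaperones of the matrix rose together: all 4 tested genes passed. Hspe1, which encodes Hsp10, the lid of the folding chamber, had an intensity of 3363 ± 164 in M-CSF and 9202 ± 502 with RANKL. That 2.74-fold rise was the largest of the whole group (log2 ratio 1.45 ± 0.09 SE, adjusted p = 3.91e-08), and 396 of the 11012 tested genes rose by more. Hspd1, encoding Hsp60, the chamber itself, went from 9663 ± 750 to 19108 ± 1454 (1.98-fold, log2 ratio 0.98 ± 0.09, adjusted p = 1.13e-06). For both partners the group means thus lay several SDs apart. Grpel1, the nucleotide exchange factor that resets matrix Hsp70, went from 2165 ± 124 to 4343 ± 259 (2.01-fold, log2 ratio 1.00 ± 0.09, adjusted p = 2.15e-06). Hspa9, matrix Hsp70 itself, went from 19478 ± 977 to 30965 ± 2241 (1.59-fold, log2 ratio 0.67 ± 0.07, adjusted p = 8.43e-06).

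Hspd1 and Hspe1 lie head to head on mouse chromosome 1, and the stretch between a start of each is shown because both genes rose. The RefSeq promoter table (GRCm38.p6) gives 2 starts of Hspd1. The 215 bases from the one at 55087932, read leftwards, to the Hspe1 start at 55088148, read rightwards, are chr1:55087933-55088147 on the plus strand. The other Hspd1 start, 55088243, lies beyond the Hspe1 start, so from there the transcribed regions overlap. Capitals mark a run of 4 heat shock units, alternating TTC and GAA with 2 bases between them, at 89 to 72 bases before the Hspe1 start.
Hspe1 and Hspd1: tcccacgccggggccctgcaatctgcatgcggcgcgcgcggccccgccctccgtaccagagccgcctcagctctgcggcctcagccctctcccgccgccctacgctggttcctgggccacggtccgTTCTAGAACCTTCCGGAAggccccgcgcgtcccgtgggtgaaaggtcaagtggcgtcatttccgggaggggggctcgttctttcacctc
Timm9, a small chaperone of the intermembrane space, had the other such run, of 3 units, at chr12:71136840-71136902 on the minus strand.
Timm9: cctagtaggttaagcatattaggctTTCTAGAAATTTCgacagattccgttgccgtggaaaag
Promoter windows of 250 bases before to 50 after a start were found for 34 of the 37 symbols, 41 windows in all; Tomm7, Hspa9 and Afg3l2 had no entry. Runs of at least 3 units were in 3 of the 41 (7.32%), those of Hspd1, Hspe1 and Timm9, and the first 2 windows overlap and share the same letters. The share was 0.603% of all 32851 mouse promoters in the table and 0.518% of the promoters of tested genes. The shorter motif TTCNNGAA was in 10 of the 41 (24.4%), against 8.52% of all promoters and 6.91% of those of tested genes. The 10 include the overlapping windows of Hspd1 and Hspe1, and those of Phb, Timm8a2 and Tomm20, which were at background in both groups. In the 28 windows of tested genes of the group, runs of at least 3 units were in 3 (10.7%) and TTCNNGAA in 7 (25%). A match is a run of letters and was not tested as a binding site.

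The inner membrane translocases and the small Tim chaperones gave 7 rises among 9 tested genes and no fall. Timm17a, a core subunit of the translocase for proteins with a targeting presequence, went from 8646 ± 1030.1 in M-CSF to 17662 ± 724 with RANKL (2.04-fold, log2 ratio 1.03 ± 0.09, adjusted p = 1.44e-06). Timm44, which tethers matrix Hsp70 to that translocase, went from 1368 ± 38.6 to 2832 ± 64.8 (2.07-fold, log2 ratio 1.05 ± 0.09, adjusted p = 9.9e-07). The array gene listed as TIMM13A went from 1566 ± 161 to 3581 ± 82.0 (2.29-fold, log2 ratio 1.19 ± 0.10, adjusted p = 9.06e-07). In each of these 3 the RANKL mean was at least 2-fold the M-CSF mean, with SDs far smaller than the gap.

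The small Tims escort hydrophobic proteins across the intermembrane space, and their rises were mostly smaller. Timm10 had an intensity of 2942 ± 158 in M-CSF and 4777 ± 23.0 with RANKL (1.62-fold, log2 ratio 0.70 ± 0.09, adjusted p = 2.45e-05). Timm8a1 was 6704 ± 844 and 10358 ± 1333 (1.55-fold, log2 ratio 0.63 ± 0.11, adjusted p = 0.000547). Timm9, the partner of Timm10, was dim, at 322 ± 21.4 and 430.2 ± 15.8, and rose 1.34-fold (adjusted p = 0.00221). Timm8b rose 1.23-fold, from 7330.3 ± 472 to 8986 ± 677 (adjusted p = 0.0128), the smallest change among the 21 that passed. With both SDs doubled, Timm8a1, Timm9 and Timm8b no longer passed.

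The remaining Timm genes showed no change that passed. Timm50, a receptor for presequences at the inner membrane, was at 2484 ± 377 and 2817 ± 206 (log2 ratio 0.18 ± 0.12, adjusted p = 0.212). Timm17b, the paralog of Timm17a, was at the detection floor, with 197 ± 8.12 in M-CSF, and below it at 175 ± 13.9 with RANKL (adjusted p = 0.106). Timm23 (144 and 156), Timm22 (191 and 187) and Timm8a2 (145 and 139) were at background in both groups, so these arrays gave no measure of the channel subunit Timm23.

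The outer membrane entry gate was mixed. Tomm70a, a receptor for proteins without a cleaved presequence, went from 897 ± 29.6 in M-CSF to 1578 ± 75.1 with RANKL (1.76-fold, log2 ratio 0.81 ± 0.09, adjusted p = 1.45e-05). Tomm22, the central receptor that organises the complex, went from 2521 ± 211 to 4325 ± 393 (1.72-fold, log2 ratio 0.78 ± 0.10, adjusted p = 4.41e-05). Both receptors were higher with RANKL by several SDs. Tomm7, a small regulatory subunit, stood at 7864 ± 730 and 7245 ± 493 (log2 ratio −0.12 ± 0.09, adjusted p = 0.295). Tomm34, a cochaperone found mainly in the cytosol, stood at 2189.7 ± 218 and 1868 ± 150 (log2 ratio −0.23 ± 0.11, adjusted p = 0.0884). Neither of these passed, and for both the RANKL mean was the lower one. Tomm20, the presequence receptor, was at background, with means of 166 and 171.

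A further 4 array genes had means above the floor but a detection p that did not follow their intensity, and so were outside the main test. Tomm40, the channel of the outer membrane, was at 372 ± 15.0 in M-CSF and 728 ± 65.6 with RANKL, a 1.95-fold higher mean. When genes were kept by intensity (above 204) instead of detection p, 31 of the 38 were tested; 25 rose and 1 fell, with 29.6% of 11663 genes higher, and Tomm40 passed (adjusted p = 4.6e-06). The others, Mfn1, Mfn2 and Immt, are given with their groups below. 

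Presequence removal and oxidative folding showed 2 rises among 3 tested genes. Pmpcb, the catalytic subunit of the processing peptidase, went from 1371 ± 172 to 2251 ± 125 (1.64-fold, log2 ratio 0.72 ± 0.11, adjusted p = 0.000161). Its partner Pmpca was dim, at 226 ± 1.39 and 237 ± 8.06, and did not pass (adjusted p = 0.461). The M-CSF mean of Pmpca lay little above the detection floor of 198, and the difference between the 2 subunits was not tested. Chchd4, the oxidoreductase that traps proteins in the intermembrane space by forming disulfide bonds, went from 2317 ± 138 to 3196 ± 180 (1.38-fold, log2 ratio 0.46 ± 0.09, adjusted p = 0.00119).

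Among the proteases, 4 of 5 tested genes rose. Clpx, the unfolding ATPase of the matrix Clp protease, went from 1099 ± 27.9 to 1831 ± 105 (1.67-fold, log2 ratio 0.74 ± 0.09, adjusted p = 3.47e-05). Clpp, its peptidase, went from 2197 ± 120 to 3014 ± 178 (1.37-fold, log2 ratio 0.46 ± 0.09, adjusted p = 0.00136). Both parts of the Clp protease were higher with RANKL. Afg3l2, a subunit of the matrix-facing AAA protease of the inner membrane, went from 636 ± 37.2 to 1017 ± 80.5 (1.6-fold, log2 ratio 0.68 ± 0.10, adjusted p = 0.000131). Spg7, paraplegin, which assembles with Afg3l2, was at 2273 ± 317 and 1902 ± 156 and did not pass (log2 ratio −0.26 ± 0.12, adjusted p = 0.0815). The 2 partners thus had ratios of opposite sign, and the difference between them was not tested. Yme1l1, the AAA protease facing the intermembrane space, which also cuts Opa1, went from 503 ± 37.3 to 639 ± 30.4 (1.27-fold, log2 ratio 0.35 ± 0.10, adjusted p = 0.0103). Chchd4, Clpp and Yme1l1 no longer passed with both SDs doubled.

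**Figure D2:**
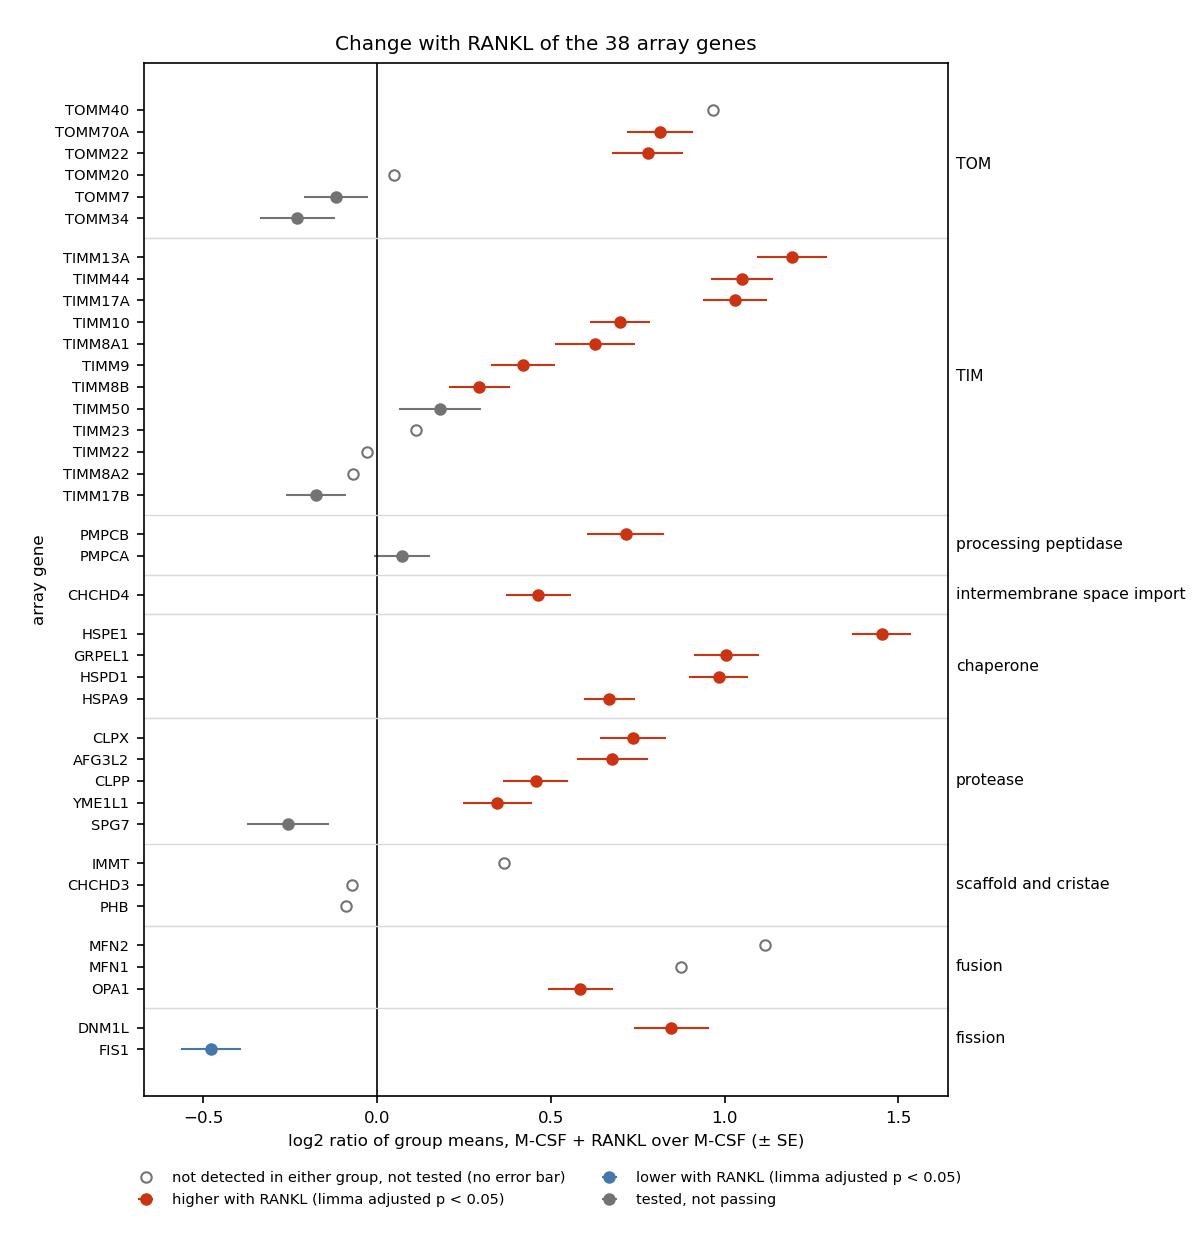
Log2 ratio of M-CSF + RANKL over M-CSF for each of the 38 array genes, grouped by role; points are the log2 ratio of group means, bars are ± SE (3 biological replicates a group), and open points were not tested. Of 28 tested genes, 21 rose and 1, Fis1, fell, and the 4 chaperones lie between 0.67 and 1.45.

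Genes of fusion and fission were higher with RANKL apart from Fis1. Opa1, the GTPase that fuses inner membranes and holds cristae closed, went from 301 ± 22.1 to 452 ± 10.3 (1.5-fold, log2 ratio 0.58 ± 0.09, adjusted p = 0.0002). The outer membrane fusion GTPases were outside the main test. Mfn2 was at 1886 ± 60.1 in M-CSF and 4088 ± 669 with RANKL (2.17-fold higher mean), and it passed in the test that kept genes by intensity (adjusted p = 5.94e-06). Mfn1 was at 1022 ± 52.0 and 1872 ± 46.5 (1.83-fold higher mean, adjusted p = 6.54e-06 in the same test). All 3 fusion genes thus had higher means with RANKL, with Mfn1 and Mfn2 outside the main test.

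The fission genes moved in opposite directions. Dnm1l, the dynamin-related GTPase that constricts mitochondria, went from 709 ± 32.0 to 1276 ± 136 (1.80-fold, log2 ratio 0.85 ± 0.11, adjusted p = 2.94e-05). Fis1, a tail-anchored protein of the outer membrane long studied as a Dnm1l adaptor, fell from 5101 ± 53.7 to 3662 ± 246 (1.39-fold lower, log2 ratio −0.48 ± 0.09, adjusted p = 0.000548). With both SDs doubled the fall of Fis1 did not pass (adjusted p = 0.0621).

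Of the scaffold and cristae genes, Immt, the core of the cristae junction complex, had means of 4183 ± 759 and 5384 ± 500.4 (1.29-fold higher, adjusted p = 0.0277 in the test that kept genes by intensity). Phb, prohibitin (128 and 120.2), and Chchd3, a further cristae junction subunit (156 and 149), were at background in both groups.

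The next promoters are shown because they held the motif of NRF1, a factor known for driving nuclear genes of mitochondrial proteins, and their genes rose. Capitals mark 1 match a promoter to GCGCATGC or its reverse complement (in Opa1 a further match overlaps it and runs on into the lower case), from the RefSeq table (GRCm38.p6), for Grpel1 at chr5:36465124-36465181, Clpx at chr9:65294149-65294206 and Opa1 at chr16:29579250-29579307, all on the plus strand.
Grpel1: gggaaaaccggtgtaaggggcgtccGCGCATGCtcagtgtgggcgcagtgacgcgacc
Clpx: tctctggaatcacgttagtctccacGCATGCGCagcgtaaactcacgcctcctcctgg
Opa1: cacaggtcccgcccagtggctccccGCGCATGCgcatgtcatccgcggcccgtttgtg
The motif was in 3 of the 41 windows (7.32%), against 2.71% of all promoters and 5.46% of those of tested genes, on either strand. The ETS motif CCGGAAGT was in 8 windows (19.5%) of 7 genes, against 3.89% and 8.76%; the 7 were Fis1, Mfn1, Pmpcb, Timm10, Timm23, Timm8a2 and Tomm70a. Fis1, which fell, and Timm10, Pmpcb and Tomm70a, which rose, all held it. The E-box CACGTG was in 7 (17.1%, against 7.15% and 10.3%), CCAAT in 16 (39.0%, against 37.4% and 37.9%), the YY1 motif AAGATGGC in 1 (Timm50; 2.44%, against 2.75% and 5.09%) and the ERR motif TCAAGGTCA in 1 (Timm8b; 2.44%, against 0.423% and 0.299%). The CREB motif TGACGTCA was in 0, against 1.79% and 3.02%. Some of the 41 windows belong to genes that were not tested. In the 28 windows of tested genes of the group, the shares were 10.7% (NRF1), 17.9% (ETS), 14.3% (E-box) and 39.3% (CCAAT). They were 3.57% for YY1, 3.57% for ERR and 0 for CREB. All motifs were searched on both strands, and TTCNNGAA and CCGGAAGT can share letters. These windows hold the letters only, and binding was not measured.

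**Figure D3:**
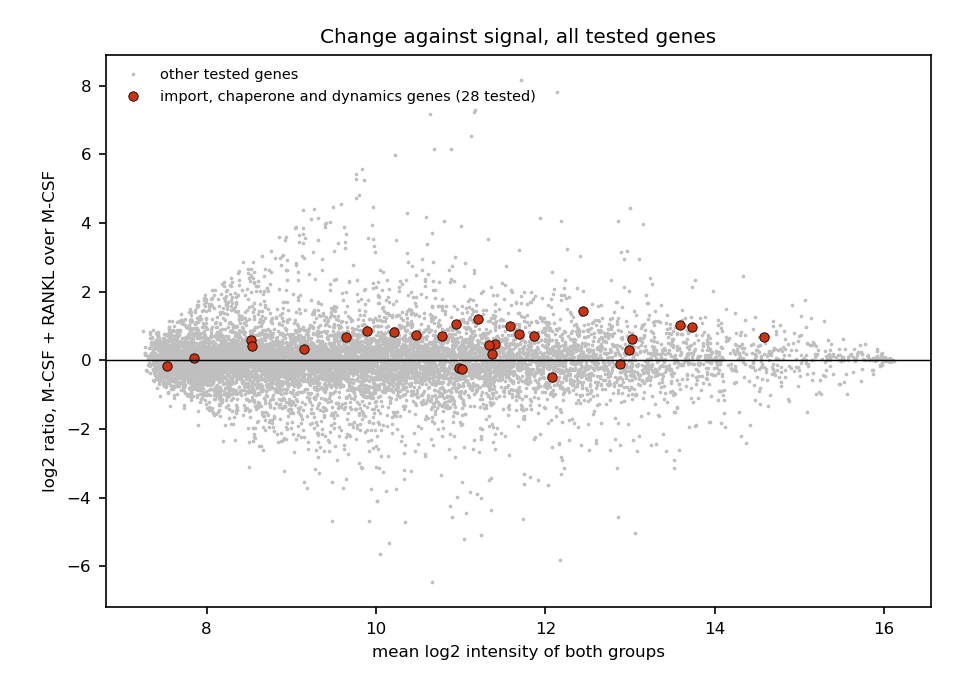
Log2 ratio of M-CSF + RANKL over M-CSF (y axis) against the mean log2 intensity of both groups (x axis) for all 11012 tested genes; red points are the 28 tested genes of import, folding and dynamics. They spread over the intensity range, most of them above 0, with log2 ratios between −0.48 and 1.45.

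The table lists 13 further array genes of the same families under older names, found through RefSeq synonyms after their values were seen; 3 of them stand for names that were missing. Chchd10, a protein of the intermembrane space and cristae, listed as NDG2, went from 2308 ± 318 in M-CSF to 35968 ± 530 with RANKL, a 15.6-fold rise (log2 ratio 3.96 ± 0.10, adjusted p = 4.14e-11). Only 32 of the 11012 tested genes had a larger log2 ratio. Lonp1, the matrix AAA protease, listed as PRSS15, went from 1132 ± 72.0 to 2143 ± 57.0 (1.89-fold, log2 ratio 0.92 ± 0.10, adjusted p = 5.48e-06). Phb2, the partner of prohibitin, listed as BCAP37, went from 6061 ± 457 to 10820.2 ± 231 (1.79-fold, log2 ratio 0.84 ± 0.08, adjusted p = 3.63e-06). Tomm5, a small subunit of the outer membrane complex, went from 8419.7 ± 115 to 19735 ± 1774 (2.34-fold, log2 ratio 1.23 ± 0.08, adjusted p = 1.03e-07). Of the 13, 8 were tested: 7 rose, 0 fell and 1, Timm29, did not pass; the other rises were Timmdc1 (2.16-fold), Timm21 (1.42-fold) and Timm10b (2137 and 2661). A second array gene of Afg3l2, outside the main test, also had the higher mean with RANKL (404 and 579), while those of Spg7 and Chchd3 were at background.

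A wider list of 62 genes, mostly of import, protein quality control, cristae and dynamics and not among the names above, had 61 on the array and 46 tested. The list also held genes outside these functions. Among them Lonp2, Tfam, Vdac1 and Vdac2 rose, Ddit3 and Atf5 did not pass, and Vdac3 and Hsf1 were outside the main test. Rises numbered 30 (65.2%) and falls 3 (6.52%), and 13 genes missed the threshold. Mtfp1 (190 in M-CSF and 266 with RANKL) and Hscb (190 and 245), counted as rises, were under the detection floor in M-CSF. They entered the test through the RANKL group alone. The median log2 ratio was 0.48, and 16 rose by at least 1.5-fold. With both SDs doubled 18 rose and 1 fell. Immp2l, a subunit of the inner membrane peptidase, had the largest rise, from 343 ± 29.7 to 887 ± 115 (2.59-fold, log2 ratio 1.37 ± 0.12, adjusted p = 1.03e-06). Micos13, a subunit of the cristae junction complex, went from 1409 ± 151 to 3579 ± 225 (2.54-fold, log2 ratio 1.35 ± 0.11, adjusted p = 4.95e-07). Dnaja3, an Hsp40 partner of matrix Hsp70, went from 1759 ± 221 to 4119 ± 414 (2.34-fold, log2 ratio 1.23 ± 0.12, adjusted p = 2.54e-06). Mul1, a ubiquitin ligase of the outer membrane, went from 889 ± 127 to 1775 ± 456 (2.00-fold, log2 ratio 1.00 ± 0.17, adjusted p = 0.000333). The largest rises thus came from a peptidase, a cristae subunit, a cochaperone and a ligase.

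The 3 that fell sit in different steps. Mtch1, a carrier-like protein of the outer membrane, fell from 14447 ± 375 to 9097 ± 539 (1.59-fold lower, log2 ratio −0.67 ± 0.08, adjusted p = 1.17e-05). Gfer, the sulfhydryl oxidase that reoxidises Chchd4, fell from 2306 ± 78.8 to 1731 ± 56.3 (1.33-fold lower, log2 ratio −0.41 ± 0.09, adjusted p = 0.00199). Its substrate Chchd4 rose, as given above. Dnajc19, a J protein of the inner membrane, fell from 8463 ± 706 to 6740 ± 680 (1.26-fold lower, log2 ratio −0.33 ± 0.10, adjusted p = 0.0127). The fall of Dnajc19 did not pass without moderation of the variances (adjusted p = 0.0733) or with both SDs doubled (0.252), and that of Gfer did not pass with both SDs doubled (adjusted p = 0.117).

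Other mitochondrial gene families were also mostly higher with RANKL. Of the respiratory chain and ATP synthase subunits, 68 of 70 tested array genes rose and 0 fell, with a median log2 ratio of 0.79. Of the mitochondrial ribosomal proteins, 54 of 65 tested rose and 1 fell, with a median of 0.65. The median of the import, folding and dynamics genes was also 0.65, and differences between the 3 groups were not tested.

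**Figure D4:**
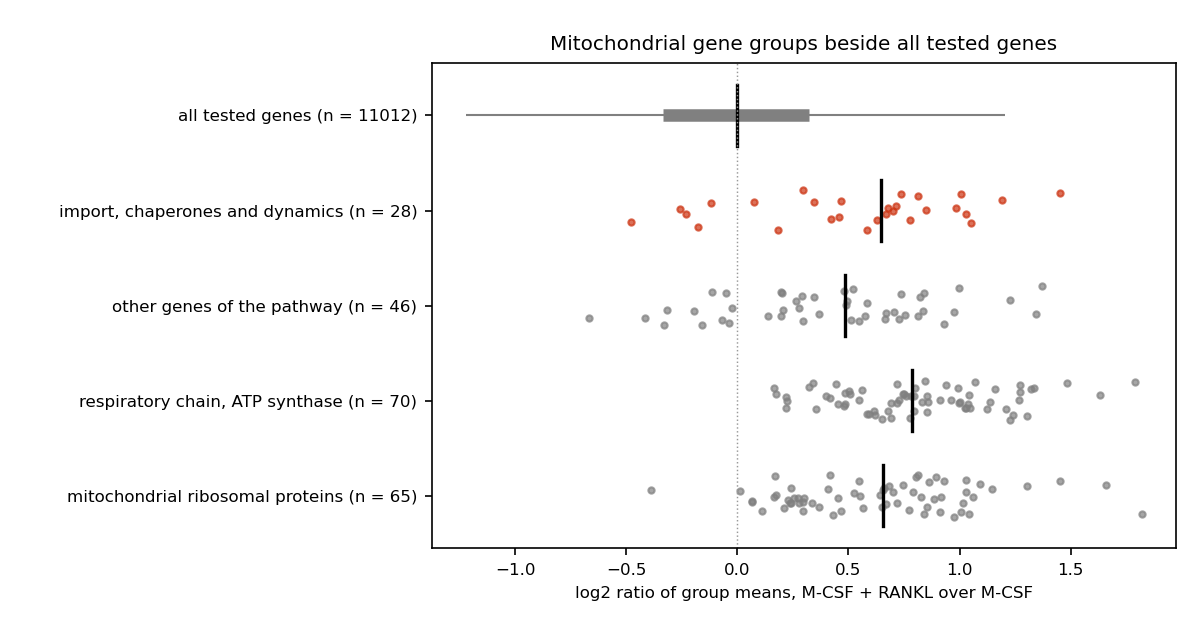
Log2 ratios of M-CSF + RANKL over M-CSF for tested genes of each list, with 1 point a gene and the median as a black line; for all 11012 tested genes the thick bar runs from the lower quartile (−0.33) to the upper (0.32) and the thin line from −1.22 to 1.21, the 5th and 95th percentiles. The medians are 0.65 for import, folding and dynamics, 0.48 for the wider list, 0.79 for the respiratory chain and 0.65 for mitochondrial ribosomal proteins.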

How the data were processed

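Per the labels, RNA of each of 3 biological replicates a group was run on its own Illumina bead array. The deposited table gives, for 31492 array genes, the mean intensity and SD of each group and a detection p-value. The deposited table is named as normalized data. The array version, the software and the normalization method: not given in the sources used here. As deposited, the ratio equals the RANKL over the M-CSF mean for all 31492 array genes (tolerance 1e-06), although its header reads the other way round. Tested genes (11012) had a detection p below 0.01 in either group. The log2 ratio of means took its variance from the deposited SDs by the delta method, pooled and moderated with an intensity trend (limma 3.58.1, R 4.3.3), and p-values were two-sided and adjusted over all tested genes at 0.05. The floor, 198 in M-CSF and 196 with RANKL, was the lowest mean detected among array genes whose detection p moves in the regular steps of a rank; 167 and 188 array genes with other detection p values below 0.01 had means under it. The undetected genes had a median of 144 in both, so ratios of dim genes are understated. The median SD was 6.89% and 6.78% of the mean, and 3 replicates limit the precision. Array genes were matched to RefSeq by symbol (13430) or by a synonym of 1 gene (8112). For a gene of the wider list with several array genes, the brightest was used.

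Members and lists were chosen with earlier results of these data known. Values are given in full for members that passed with at least 1.5-fold or fell, for all tested chaperone, protease, fusion and fission genes, and for the 4 largest rises and falls of the wider list (3 fell); the remaining members are accounted for with shorter values. Alternatives changed the filter, background, scaling, SDs, moderation and averaging of array genes. The proteins encoded were not used here.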

Additional observations from a re-analysis of the deposited data

How the results depend on the processing

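Background subtraction, median centring, quantile scaling and averaging the array genes of a symbol could change a ratio, and no result changed direction under them. The other alternatives were no filter, a filter on intensity, both SDs doubled, no intensity trend and no moderation. These keep the same group means, so the direction of a gene's ratio could not change under them. The 21 rises, of 28 tested, were 15 to 25. They were 15 of 28 with both SDs doubled, 25 of 31 with the filter on intensity and 25 of 38 with no filter. With no filter, 3352 of all 31492 array genes were higher. With both SDs doubled, 0 import, folding and dynamics genes fell, and 18 genes of the wider list rose and 1 fell; 7 of the named genes no longer passed (6 rises and Fis1). Without moderation 25 genes of the wider list rose and 3 fell, with Spire1 (adjusted p = 0.00614) in place of Dnajc19. Of all 11012 tested genes, 2694 were then higher and 2623 lower. With no filter on detection, which adds genes at background, the median log2 ratio was 0.52 (main 0.65), and 0.29 for the wider list (main 0.48), which was 0.58 after background subtraction. Leaving out replicates could not be run, because single arrays were not used here. No paired analysis was possible because the deposited columns are group means. Of the 38 array genes, 6 were at background and give no measure of change.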

Other observations

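Several paralog pairs, picked after their values were seen, had unlike ratios; the difference between paralogs was not tested, and bead intensities are not comparable between genes. Dnajc15, a J protein related to Dnajc19, rose 1.63-fold, from 7217 to 11747 (adjusted p = 1.32e-05), and Dnajc19 fell, though not without moderation. Mtch2, the paralog of Mtch1, rose 1.20-fold, from 3283 to 3936 (adjusted p = 0.0271), and Mtch1 fell. The rise of Mtch2 did not pass with no filter on detection (adjusted p = 0.0685) or with both SDs doubled (0.333). Mief1, a receptor for Dnm1l, rose 1.66-fold, from 841 ± 109 to 1394 ± 98.8 (adjusted p = 0.000191). Mief2 was at 447 ± 107 and 516 ± 19.2 (adjusted p = 0.255). Second array genes of Mief1 (128 and 137) and Dnajc19 (146 and 140) were at background in both groups. Grpel1 rose 2.01-fold, and Grpel2 was at 338 ± 29.9 and 388 ± 44.0 (adjusted p = 0.15). Of the outer membrane pores, Vdac1 rose 1.77-fold, from 11246 ± 284 to 19883 ± 1378, and Vdac2 rose 1.59-fold, while Vdac3 was at 3089.5 ± 152 and 3209.7 ± 264 and did not pass when genes were kept by intensity (adjusted p = 0.644).

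Oma1, the stress-activated protease that cuts Opa1, rose 1.66-fold (adjusted p = 5.7e-05). Of the stress factors, Ddit3 (808 and 772, adjusted p = 0.609) and Atf5 (1117 and 897, adjusted p = 0.0983) did not pass.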
